A study of Mus musculus with 8 samples.

Results

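The genes described here are *Tnf*, its receptors and genes of the NF-kB pathway that it switches on, in CD11b+ cells of the mouse brain. They are 10 of the 20308 genes in the files, picked by name for their roles in the pathway: the cytokine gene *Tnf*, the receptor genes *Tnfrsf1a* and *Tnfrsf1b*, the feedback and cofactor genes *Tnfaip3*, *Nfkbia* and *Nfkbiz*, and the subunit genes *Nfkb1*, *Nfkb2*, *Rel* and *Relb*. The choice was made with earlier results of these data known. All 10 passed the filter on low counts, as did 13407 genes in all. RNA-seq was done on 4 controls and 4 CSF1 OE mice, 14 or 15 days of age and all F1 of C57Bl/6 and CD1, with 1 library per mouse. The transgene of CSF1 OE mice makes secreted colony stimulating factor 1, a growth factor of microglia. It is driven through tTA and TRE, a tetracycline-regulated pair, in some of the GFAP+ cells, whereas the cells sequenced here were chosen for CD11b. The labels do not say which of its alleles the controls carried. Cells were pulled from the right hemisphere with magnetic beads against CD11b, a surface protein of microglia and other myeloid cells, after myelin was removed on Percoll. Mice are named by the animal numbers in their labels, 1827, 1872, 1874 and 1934 for controls and 1931, 1932, 1936 and 2019 for CSF1 OE.

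TNF is a cytokine that microglia and other macrophages release within hours of stimulation. When it binds TNFR1 or TNFR2, a receptor complex activates the IKK kinases, which mark the inhibitor IkB-alpha for destruction and so let dimers of Rel-family proteins enter the nucleus. Among the genes that these dimers switch on are those of their own inhibitors, IkB-alpha (*Nfkbia*) and A20 (*Tnfaip3*), which end the response, and *Tnf* itself.

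The question put to the libraries was whether the RNA of this loop differed between CD11b+ cells of CSF1 OE and control mice. *Tnf* had the largest fold difference of the 10 genes. Its mean was 281 ± 107 CPM in CSF1 OE and 113 ± 29.2 CPM in control mice (SD, n = 4 each). *Nfkbiz*, *Nfkbia* and *Rel* were next in fold difference, while *Tnfrsf1b* and *Nfkb1* had nearly equal means. CPM are read counts scaled to the total of each library times its TMM factor, a correction for composition. The factors ran from 0.938 in CSF1 OE mouse 2019 to 1.12 in control mouse 1934. None of the 10 passed the call used throughout, an adjusted p under 0.05 by edgeR together with a fold under 0.7 or over its reciprocal. Of all genes tested, 0.44% did (0.388% higher in CSF1 OE).

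The sequence just before the start of transcription is shown for 4 of the genes. *Nfkbia* and *Rel* had their highest and lowest CSF1 OE values in the same mice as *Tnf*, 1931 and 1932. So did *Tnfrsf1a*, *Nfkbiz*, *Nfkb2* and *Relb*, so that this does not set the genes shown apart. *Tnfaip3*, also a textbook NF-kB target, had its highest in mouse 1931 too but its lowest in mouse 2019. Of all genes tested, 18.7% had mouse 1931 as the highest and 24.4% mouse 1932 as the lowest CSF1 OE mouse. Sequences are from RefSeq on the assembly GRCm38.p6, 5′ to 3′ on the transcribed strand, which is the minus strand for all of them, and end at the base before the start. Capitals mark matches to the NF-kB consensus, a motif of 10 letters, and to the TATA box motif TATAAA. Both were searched on both strands, and no match of one overlapped a match of the other. The *Tnf* sequence is chr17:35202008-35202257, that of *Nfkbia* is chr12:55492648-55492897, that of *Rel* is chr11:23770970-23771219 and that of *Tnfaip3*, for 1 of its listed starts, is chr10:19015411-19015660.
Tnf: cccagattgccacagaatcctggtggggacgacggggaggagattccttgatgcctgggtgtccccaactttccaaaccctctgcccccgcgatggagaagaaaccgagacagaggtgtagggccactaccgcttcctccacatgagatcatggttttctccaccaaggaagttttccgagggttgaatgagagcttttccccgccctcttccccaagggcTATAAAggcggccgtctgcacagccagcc
Nfkbia: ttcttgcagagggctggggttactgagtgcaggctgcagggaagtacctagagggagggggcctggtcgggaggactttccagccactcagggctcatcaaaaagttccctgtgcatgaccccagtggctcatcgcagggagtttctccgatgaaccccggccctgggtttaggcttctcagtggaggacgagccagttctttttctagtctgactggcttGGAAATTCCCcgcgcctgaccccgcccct
Rel: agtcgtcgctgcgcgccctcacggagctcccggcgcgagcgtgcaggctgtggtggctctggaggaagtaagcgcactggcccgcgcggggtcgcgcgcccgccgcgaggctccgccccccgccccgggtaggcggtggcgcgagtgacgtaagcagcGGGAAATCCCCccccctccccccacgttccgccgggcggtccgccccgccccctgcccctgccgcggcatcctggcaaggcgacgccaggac
Tnfaip3: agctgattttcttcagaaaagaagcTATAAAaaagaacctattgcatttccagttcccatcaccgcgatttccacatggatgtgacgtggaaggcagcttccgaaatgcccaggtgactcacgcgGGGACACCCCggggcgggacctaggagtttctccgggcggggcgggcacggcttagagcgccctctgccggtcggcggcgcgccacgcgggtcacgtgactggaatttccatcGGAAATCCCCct

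The NF-kB consensus was matched by GGAAATTCCC in *Nfkbia*, beginning 29 bases before the start, and by GGAAATCCCC in *Tnfaip3*, beginning 12 bases before it. *Tnfaip3* held a further match, GGGACACCCC, further upstream. In *Rel* the matches GGGAAATCCC and GGAAATCCCC, 92 and 91 bases before the start, overlap each other. The windows of *Nfkb2* also held matches, and those of *Tnf*, *Tnfrsf1a* and *Tnfrsf1b* held none, so that 4 of the 7 genes found in the table had one. The search covered 250 bases before and 50 bases after each start, and 5.14% of the 27025 genes in the table (4.51% of its 32851 windows) held this motif. *Nfkb2* and *Tnfaip3* have several windows each. The TATA box motif was in 13.6% of all windows. In *Tnf* it began 29 bases before the start, whereas in *Tnfaip3* it began 225 bases before the start, far from the usual place of a TATA box, and in *Nfkbia* it lay after the start, beyond the bases printed, on the other strand. A match is a run of letters and no measurement of binding, and the lack of one says only that these letters are not in this window. *Nfkbiz*, *Nfkb1* and *Relb* were not matched in the sequence table.

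The libraries held between 12053280 and 15475488 counts. Microglia markers such as *P2ry12* and *Tmem119* were present in every library, with sums over 10 markers of 22183 to 38599 CPM in controls and 28583 to 39763 CPM in CSF1 OE mice. The lowest sum belonged to control mouse 1934. In the same order of genotypes, sums were 522 to 896 and 254 to 577 CPM for the 6 monocyte markers in the files, 47.0 to 108 and 16.3 to 234 CPM for 7 neutrophil markers, 1603 to 2519 and 1312 to 1939 CPM for 8 border macrophage markers, and 761 to 1344 and 362 to 913 CPM for 8 endothelial markers. Most of the monocyte sums was *Fn1*, with means of 639 CPM in controls and 386 CPM in CSF1 OE mice. *Ly6c2* and *Ccr2* had means of 1.94 and 11.1 CPM in controls and 1.09 and 7.45 CPM in CSF1 OE mice. *Plac8* was higher in CSF1 OE mice, at 23.7 against 7.28 CPM. The other 5 monocyte markers had a lower fitted level, and 0 were called. All 8 endothelial and 5 red blood cell markers had a lower fitted level in CSF1 OE mice, and 0 were called. The B cell marker *Pax5* was at 0 in all 8 libraries. *Csf1* itself, which other cells than those of the transgene also express, had 282 ± 98.7 CPM in controls and 322 ± 107 CPM in CSF1 OE mice (SD, n = 4 each), a log2 fold change of 0.19 ± 0.33 (SE) with an adjusted p of 0.796 (edgeR). This does not check the labels, since the transgene is driven in GFAP+ cells.

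*Tnf* (GRCm38, chromosome 17, 35199381 to 35202007, minus strand) had 148, 97.4, 124 and 81.6 CPM in control mice 1827, 1872, 1874 and 1934. In CSF1 OE mice 1931, 1932, 1936 and 2019 it had 364, 132, 354 and 274 CPM. Of the CSF1 OE mice, 3 lay above every control and mouse 1932 lay inside the control range, so that the groups overlapped. The log2 fold change was 1.32 ± 0.31 (SE), a fold of 2.49 with a 95% interval of 0.61 to 2.02 on the log2 scale and an adjusted p of 0.0902 (edgeR, Benjamini-Hochberg over all genes). A log2 fold change at least as large was found in 60 genes, 0.448% of those tested. The gene had at least 1380 counts in every library, so that counting error was small against the spread between mice. The edgeR p-values given here set the difference between genotypes against the spread between these animals, which is estimated with information from all genes. In bulk RNA of cells pulled down together, fewer cells that express a gene and less RNA per cell cannot be told apart.

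Whether *Tnf* was called depended on the settings. It was called by DESeq2 (adjusted p = 0.00157), when the range of animal numbers entered the model (log2 fold change 1.47, adjusted p = 0.038 by edgeR), with a covariate for immediate early genes (1.35, adjusted p = 0.046) and without CSF1 OE mouse 1932 (1.55, adjusted p = 0.047). A covariate for the mean level of the microglia markers, added once the values were known, gave 1.33 with an adjusted p of 0.0453. Genes called as higher were 1.6%, 2.25%, 1.58%, 0.0958% and 1.54% of the genes tested under these 5 settings, in that order. DESeq2 tested 16825 genes, without the filter on low counts, and the fit without mouse 1932 tested 13576. Over all 21 alternatives the log2 fold change of *Tnf* ran from 0.92 to 1.55 and its adjusted p from 0.00157 to 0.255. It was higher in CSF1 OE mice in every one of them.

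**Figure D1:**
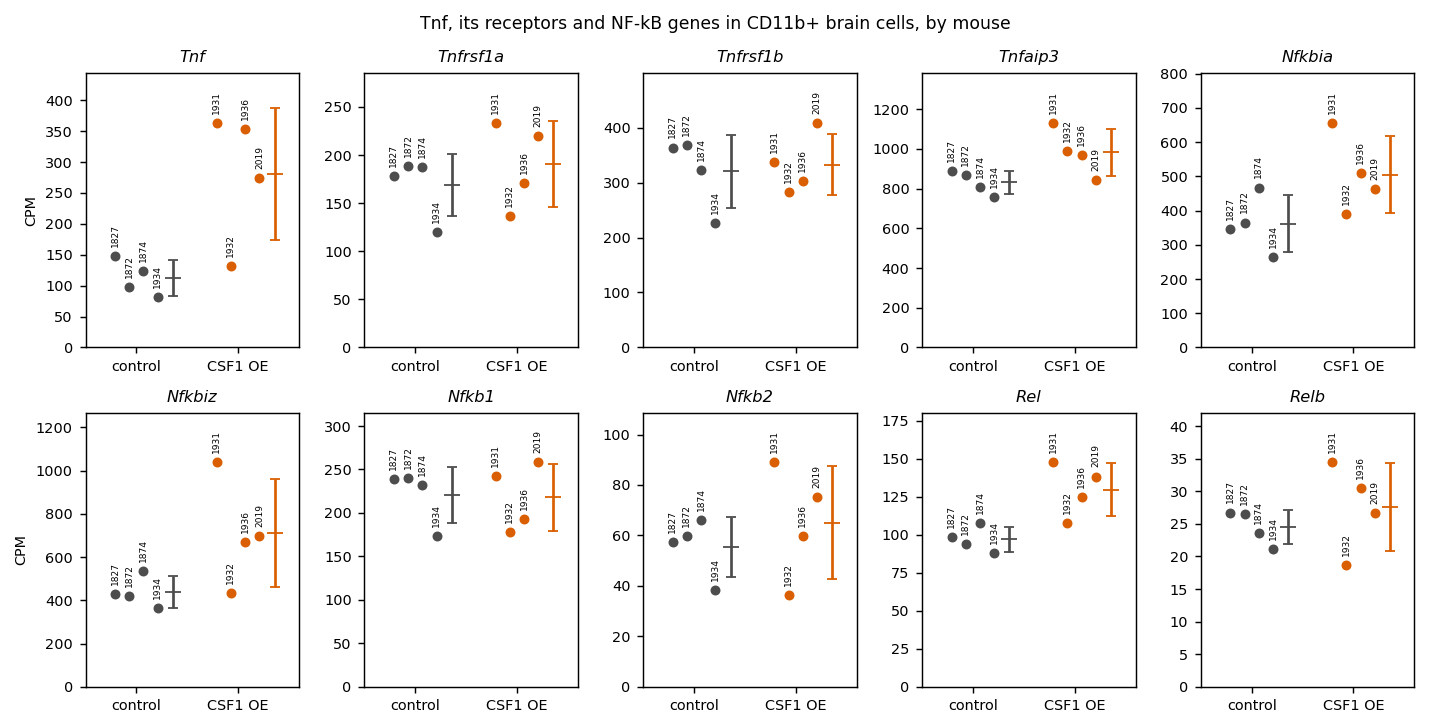
Values of the 10 genes in CPM (read counts scaled to TMM-adjusted library size, linear axes from 0), 1 point per mouse labelled with its animal number, in grey for control and orange for CSF1 OE mice, with the mean and SD of 4 mice beside them. The CSF1 OE points of *Tnf* lie from 132 to 364 CPM and those of the control from 81.6 to 148 CPM, and *Rel* is the gene whose groups do not overlap.

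The receptor genes differed little between the genotypes. *Tnfrsf1a* encodes TNFR1, which most cell types express, and had 179, 188, 188 and 120 CPM in controls 1827, 1872, 1874 and 1934 against 234, 137, 171 and 220 CPM in CSF1 OE mice 1931, 1932, 1936 and 2019. Control mouse 1934 lay well below the other controls, and the groups overlapped. The log2 fold change was 0.17 ± 0.20 (SE, adjusted p = 0.687, edgeR).

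*Tnfrsf1b* encodes TNFR2, the receptor found mainly on immune and endothelial cells. Its values were 364, 369, 322 and 226 CPM in the controls and 337, 282, 302 and 409 CPM in the CSF1 OE mice, in the same order. Only mouse 2019 exceeded the highest control. The log2 fold change was 0.05 ± 0.17 (SE) with a 95% interval of -0.34 to 0.45 and an adjusted p of 0.894 (edgeR), and it turned to -0.07 without control mouse 1934 and to -0.06 without CSF1 OE mouse 2019.

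Since both receptors were measured in each library, their ratio does not depend on library size. Counts of *Tnfrsf1b* were 2.04, 1.96, 1.72 and 1.88 times those of *Tnfrsf1a* in the controls and 1.44, 2.06, 1.77 and 1.86 times in the CSF1 OE mice. The lowest ratio was that of mouse 1931, and the other 3 CSF1 OE mice lay in the control range or just above it. On the log2 scale the mean was 0.92 ± 0.11 in control and 0.82 ± 0.22 in CSF1 OE mice (SD, n = 4 each), a difference of -0.10 (two-sided exact permutation test over 70 assignments, p = 0.514, where the smallest p possible is 0.0286).

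The feedback genes were among the most abundant of the 10. *Nfkbia*, the gene of the inhibitor that NF-kB replaces after each activation, had 347, 365, 468 and 266 CPM in controls 1827, 1872, 1874 and 1934 and 657, 389, 509 and 464 CPM in CSF1 OE mice 1931, 1932, 1936 and 2019. Mice 1931 and 1936 lay above every control, and mouse 1932 was again the lowest of its group. Its log2 fold change was 0.48 ± 0.20 (SE, adjusted p = 0.275, edgeR).

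*Nfkbiz* encodes IkB-zeta, a nuclear protein that NF-kB induces and that works with it on a subset of its targets. In the controls it had 431, 420, 537 and 363 CPM and in the CSF1 OE mice 1040, 434, 671 and 699 CPM. All CSF1 OE mice but 1932 exceeded every control. On the log2 scale the difference was 0.70 ± 0.24 (SE, adjusted p = 0.207, edgeR).

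*Tnfaip3*, the gene of the deubiquitinase A20 that shuts off signalling at the receptor complex, had 888, 870, 809 and 759 CPM in the controls and 1132, 990.1, 967 and 844 CPM in the CSF1 OE mice. Here mouse 2019 and not mouse 1932 was the lowest CSF1 OE mouse, and it lay inside the control range. The log2 fold change was 0.24 ± 0.12 (SE, adjusted p = 0.337, edgeR), the smallest of the 3 feedback and cofactor genes.

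Of the subunit genes, *Rel* differed most. It encodes c-Rel, a subunit with a transactivation domain that is prominent in immune cells, and had 98.8, 94.0, 107.4 and 88.1 CPM in the controls and 147.9, 107.7, 124.6 and 138.3 CPM in the CSF1 OE mice. Every CSF1 OE mouse lay above every control, although the margin between mouse 1932 and control mouse 1874 was small. The TMM factors of mice 1932 and 1874 were 0.999 and 1.03, so that this separation depends on the scaling. This gave a log2 fold change of 0.42 ± 0.11 (SE, adjusted p = 0.122, edgeR). It was the only one of the 10 genes whose groups did not overlap, whereas 6.84% of all genes tested had every CSF1 OE mouse above every control.

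The other subunit genes had smaller differences. *Nfkb1* encodes p105, the precursor of p50, and had 240, 240, 232 and 173 CPM in the controls and 243, 178, 193 and 259 CPM in the CSF1 OE mice. Both ranges were nearly the same, with mouse 1934 lowest in one and mouse 1932 lowest in the other. Fitted together, the mice gave a log2 fold change of -0.02 ± 0.15 (SE, adjusted p = 0.959, edgeR) with a 95% interval of -0.36 to 0.33. Its sign changed when any one of mice 1827, 1872, 1874, 1932 and 1936 was left out. Over all leave-one-out fits the values ran from -0.11 to 0.07.

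*Nfkb2*, the gene of the p100 precursor of p52 in the alternative pathway, had 57.4, 59.8, 66.1 and 38.3 CPM in the controls and 89.1, 36.5, 59.6 and 75.1 CPM in the CSF1 OE mice. Mouse 1932 lay below and mice 1931 and 2019 above all controls, and the log2 fold change was 0.23 ± 0.26 (SE, adjusted p = 0.688, edgeR). Exons of *Psd* and of a noncoding gene overlap those of *Nfkb2* on the opposite strand, and the library kit does not mark strand, so that its counts are uncertain.

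*Relb*, whose product pairs with p52, was the least abundant, with 26.7, 26.6, 23.6 and 21.2 CPM in the controls and 34.5, 18.7, 30.5 and 26.6 CPM in the CSF1 OE mice. Mice 1931 and 1936 exceeded every control and mouse 1932 lay below them all. Its log2 fold change was 0.17 ± 0.18 (SE, adjusted p = 0.665, edgeR).

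Counted together, 9 of the 10 genes had a higher fitted level in CSF1 OE mice, the exception being *Nfkb1*, against 44.8% of all genes tested. Their median log2 fold change was 0.24, and that of all genes was -0.03. At an unadjusted p under 0.05, *Tnf*, *Nfkbia*, *Nfkbiz* and *Rel* were higher and none was lower, where 10.1% of all genes were higher and 6.44% lower at this limit. The 10 genes were chosen with earlier results of these data known, so that these shares are no independent support. By DESeq2 1 of the 10 genes, *Tnf*, was called. Of all genes edgeR called 52 higher and 7 lower, and DESeq2 called 269 higher and 158 lower.

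**Figure D2:**
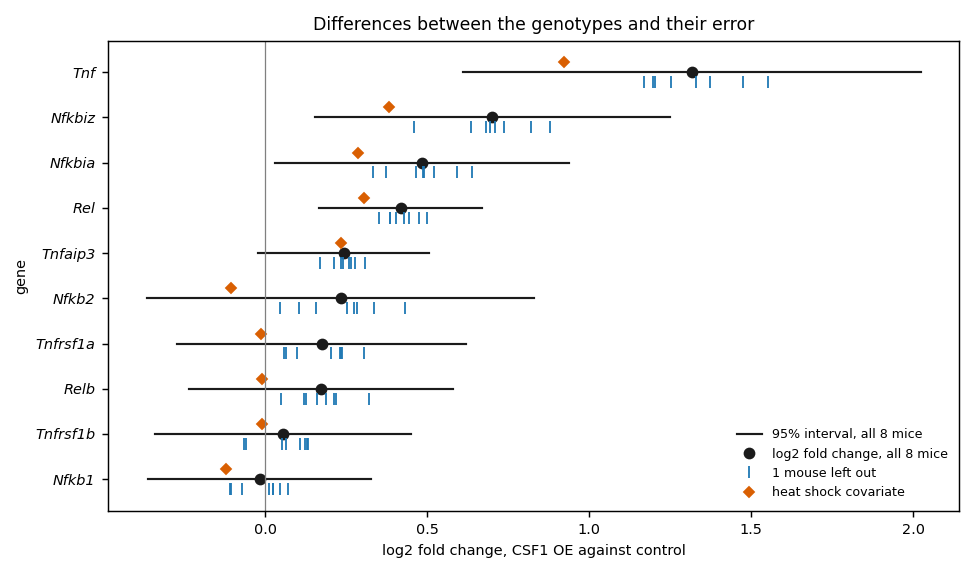
Log2 fold change of each gene in CSF1 OE against control mice (horizontal axis), with its 95% interval derived from the F statistic of edgeR, the 8 values obtained when 1 mouse is left out (blue ticks) and the value with a covariate for heat shock genes (orange). *Tnf* is at 1.32 with an interval of 0.61 to 2.02, and *Nfkb1* and *Tnfrsf1b* lie beside 0.

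The same few mice were at the ends of most of the 10 genes. Control mouse 1934 was the lowest control for 10 of 10 genes, as it was for 37.6% of all genes tested. Its TMM factor of 1.12, the highest of the 8 libraries, lowers its CPM. CSF1 OE mouse 1932 was the lowest of its group for 9 of 10 genes (24.4% of all genes), and mouse 1931 was the highest CSF1 OE mouse for 8 of 10 (18.7% of all genes). Mouse 1934 also had the lowest sum of microglia markers, 22183 CPM against 33623 CPM for the next control, and its summed oligodendrocyte lineage markers were the highest of the 8 libraries at 5690 CPM. What part this had in its low values was not tested.

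Heat shock genes such as *Hspa1a*, *Hspa1b* and *Dnajb1*, which respond to stress of the cells, ran the other way for some of the 10 genes, and only in part. Their mean log2 CPM over 9 genes was 9.34, 8.95, 7.07 and 9.17 in controls 1827, 1872, 1874 and 1934 and 6.42, 9.82, 7.27 and 7.32 in CSF1 OE mice 1931, 1932, 1936 and 2019. Mouse 1931, with the lowest heat shock level, had the highest *Tnf*, *Nfkbia*, *Nfkbiz* and *Rel*, and mouse 1932, with the highest heat shock level, had the lowest values of these 4 genes in its group. Among the controls, mouse 1874 alone had a low heat shock level, and it had the highest *Nfkbia*, *Nfkbiz* and *Rel* of the controls while its *Tnf* was second to that of mouse 1827. Mouse 1827, with the highest heat shock level of the controls, had the highest control *Tnf*, *Tnfaip3* and *Relb*. How many of all genes follow the heat shock order was not counted. The 9 heat shock genes had summed levels of 3837 to 14990 CPM in controls and 3153 to 19674 CPM in CSF1 OE mice, 8 of the 9 had a lower fitted level in CSF1 OE mice, and 0 were called.

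With a covariate for the heat shock genes, also added once the values were known, the log2 fold change of *Tnf* was 0.92 (adjusted p = 0.182, edgeR), that of *Nfkbiz* 0.38, that of *Rel* 0.31 and that of *Nfkbia* 0.28. None of the 10 genes was called in this fit, where 0.0597% of all genes were called as higher. In the same fit *Tnfrsf1a*, *Tnfrsf1b*, *Nfkb2* and *Relb* turned to values between -0.11 and -0.01. The part of the heat shock response in these differences was not tested. Immediate early genes, which cell isolation induces, had means of 8.61 to 9.51 log2 CPM in controls and 8.81 to 9.45 log2 CPM in CSF1 OE mice, and 0 of the 13 were called.

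**Figure D3:**
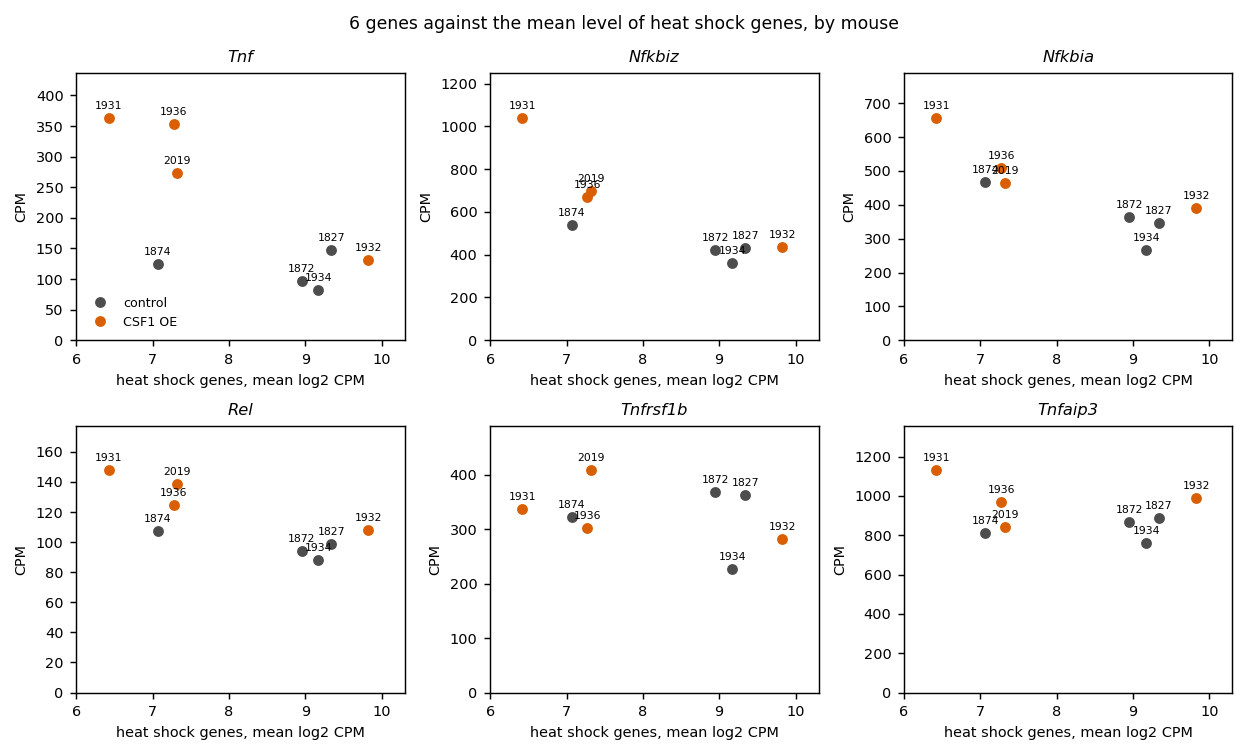
CPM of 6 genes (vertical axes, linear from 0) against the mean log2 CPM of 9 heat shock genes (horizontal axes), 1 point per mouse labelled with its animal number, grey for control and orange for CSF1 OE. Mouse 1931 at 6.42 has the highest *Tnf*, *Nfkbiz*, *Nfkbia* and *Rel*, and CSF1 OE mouse 1932 at 9.82 sits near the controls in these panels.

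The animal numbers fall into a range of 1931 to 1936, with 1 control and 3 CSF1 OE mice, and the other numbers, with 3 control and 1 CSF1 OE mice. The labels do not say whether this range marks a litter or a batch. Within the first range every CSF1 OE mouse lay above the control for 8 of the 10 genes (35.2% of all genes tested), within the second for 7 (32.3%) and in both for 6 (19.8%). The only control of the first range is mouse 1934, the lowest control for all 10 genes and for the summed microglia markers. For *Tnf* the differences of the mean log2 CPM were 1.65 and 1.17. For *Nfkbiz* they were 0.89 and 0.60, for *Rel* 0.51 and 0.47, and for *Nfkbia* 0.93 and 0.25, where in the second range the CSF1 OE mouse did not exceed every control. *Tnfaip3* differed by 0.44 in the first range and by -0.02 in the second.

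To compare levels between genes, CPM were divided by the length of the principal transcript in kilobases. In control mice *Nfkbia* was highest at 229 CPM per kilobase, followed by *Tnfaip3* at 188, *Nfkbiz* at 106, *Tnfrsf1b* at 83.9, *Tnfrsf1a* at 78.2, *Tnf* at 68.8, *Nfkb1* at 53.7, *Nfkb2* at 17.6, then *Rel*, and last *Relb* at 11.1 CPM per kilobase. Neighbours in this order were separate in all controls only between *Tnfaip3* and *Nfkbiz* and between *Nfkb1* and *Nfkb2*. The other neighbours overlapped between mice. Within single mice of both genotypes, *Nfkbiz* was above *Tnfrsf1b*, *Tnf* above *Nfkb1* and *Rel* above *Relb* in 8 of 8. *Nfkbia* was above *Tnfaip3* and *Nfkb2* above *Rel* in 7 mice. *Tnfrsf1b* was above *Tnfrsf1a* in 5 mice, and *Tnfrsf1a* above *Tnf* in 3. *Nfkbia* was above 98.3% of all genes tested on this scale and *Relb* above 57.5%. *Tnf* reached 171 CPM per kilobase in CSF1 OE mice and moved from above 93.5% to above 97.5% of all genes. Lengths taken over all exons gave another order, with *Nfkb1* at 18.3 CPM per kilobase.

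The wider pathway was described from 8 lists, set up by role, of 124 genes, of which 122 were in the files and 104 were tested. These lists too were set up with earlier results of these data known, so that their shares are no independent support. By edgeR 0 of the 104 were called in either direction, with 60 higher and 44 lower and a median log2 fold change of 0.05. At an unadjusted p under 0.05, 19 of the 104 were higher and 5 lower, against 10.1% and 6.44% of all genes. Without overlap of the groups, 8 were higher and 2 lower, against 6.84% and 3.45% of all genes. DESeq2 called 9 of them, all higher in CSF1 OE mice, where it called 1.6% of the 16825 genes it tested as higher: *Rhbdf2*, *Il1a*, *Ccl5*, *Cxcl10*, *Bcl2a1a*, *Bcl2a1b*, *Bcl2a1d*, *Plaur* and *Tlr2*. The *Bcl2a1* genes are near-identical copies that share reads, so that they are not separate counts among the 9.

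Release of TNF and control of its mRNA were represented by 13 genes, 7 higher and 6 lower. *Rhbdf2*, which encodes iRhom2, the partner that brings the TNF-shedding protease ADAM17 to the cell surface in myeloid cells, had 36.1, 34.0, 26.3 and 34.6 CPM in the controls and 65.2, 44.3, 56.1 and 37.9 CPM in the CSF1 OE mice. Its groups did not overlap, and the log2 fold change was 0.63 ± 0.18 (SE, adjusted p = 0.139, edgeR). *Adam17* itself had 280 ± 37.1 CPM in controls and 297 ± 42.2 CPM in CSF1 OE mice (SD, n = 4 each). *Zfp36l1*, a relative of the protein that destabilises *Tnf* mRNA, had the largest decrease of this list at -0.52 ± 0.22 (SE, adjusted p = 0.288), with mouse 1936 far below the other mice.

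Among the other ligands of the superfamily only 6 of 16 passed the filter on low counts. *Tnfsf13*, which encodes APRIL, had 2.71 ± 0.79 CPM in controls and 4.52 ± 0.33 CPM in CSF1 OE mice (SD, n = 4 each), and its groups did not overlap, with a log2 fold change of 0.74 (adjusted p = 0.205, edgeR). *Tnfsf18* was at -0.59 (adjusted p = 0.595). Of 22 other receptors 17 were tested, 9 higher and 8 lower, from *Tnfrsf11b* at -0.92 (adjusted p = 0.401), the gene of the decoy receptor osteoprotegerin, to *Tnfrsf14* at 0.49 (adjusted p = 0.328).

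Between receptor and NF-kB stand the adaptors and ubiquitin ligases of the receptor complex and the kinases that it activates. In the receptor complex 10 of 17 genes were higher and 7 lower, and 0 had an unadjusted p under 0.05. The extremes were *Birc3*, the ubiquitin ligase cIAP2, at 0.42 ± 0.19 (SE, adjusted p = 0.312, edgeR) and *Traf1* at -0.70 ± 0.34 (SE, adjusted p = 0.338), the second at only 0.588 to 1.87 CPM. Of 6 IKK and NIK kinases the log2 fold changes ran from -0.25 for *Map3k14* (NIK; adjusted p = 0.383) to 0.08 for *Tbk1* (adjusted p = 0.630). The 10 other negative regulators tested had a median of -0.01, with *Usp21* lowest at -0.34 (adjusted p = 0.382) and *Spata2* highest at 0.06 (adjusted p = 0.778).

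The other NF-kB and IkB genes were all higher, 5 of 5, with a median log2 fold change of 0.37 and 1 at an unadjusted p under 0.05. That was *Nfkbib*, the gene of the inhibitor IkB-beta, which had 33.1, 31.1, 35.6 and 23.8 CPM in the controls and 76.1, 33.6, 53.8 and 39.0 CPM in the CSF1 OE mice, with mouse 1932 inside the control range. Its log2 fold change was 0.71 ± 0.25 (SE, adjusted p = 0.209, edgeR). *Nfkbid* was at 0.03 (adjusted p = 0.964) and turned to -0.12, -0.04 and -0.16 without mouse 1934, 1931 or 2019. *Rela*, the gene of p65, was at 0.16 ± 0.22 (SE, adjusted p = 0.740).

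**Figure D4:**
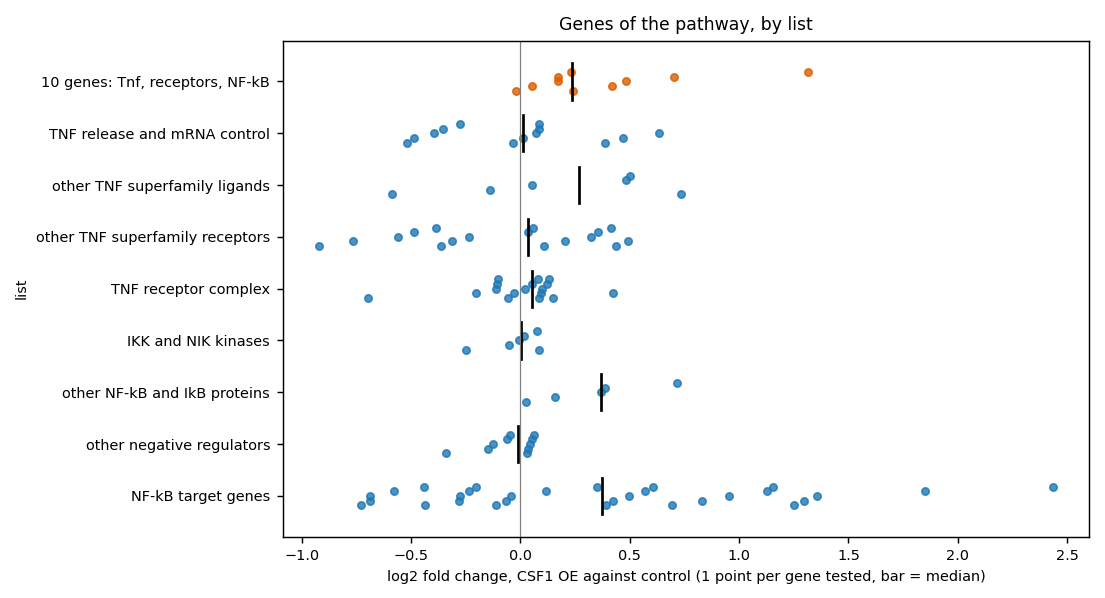
Log2 fold change in CSF1 OE against control mice (horizontal axis), 1 point per gene tested, for the 10 genes (orange) and the 8 lists of the wider pathway (blue), with a bar at the median of each. The kinases lie between -0.25 and 0.08, while the NF-kB target genes spread from -0.73 to 2.43 around a median of 0.37.

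Genes that NF-kB is known to switch on spread widely, with 17 of 30 higher and 13 lower. At an unadjusted p under 0.05, 12 were higher and 2 lower. The 12 include *Bcl2a1a*, *Bcl2a1b* and *Bcl2a1d*, which share reads. *Ccl5*, a chemokine of low level here, had 0.61, 0.48, 0.08 and 0.59 CPM in the controls and 1.97, 2.94, 3.68 and 1.15 CPM in the CSF1 OE mice, and its log2 fold change of 2.43 ± 0.54 (SE, adjusted p = 0.0753, edgeR) was the highest. *Clec4e*, which encodes the receptor Mincle, was the lowest at -0.73 ± 0.38 (SE, adjusted p = 0.380). Both had groups that did not overlap. *Clec4e* had only 6 to 31 counts per library, and its groups were barely apart, at 1.59 CPM in CSF1 OE mouse 2019 and 1.61 CPM in control mouse 1827.

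Other targets are named after their values had been seen. *Tlr2*, the gene of a receptor for bacterial lipoproteins, had 299, 269, 245 and 214 CPM in the controls and 583, 361, 430 and 449 CPM in the CSF1 OE mice, which did not overlap (log2 fold change 0.83 ± 0.16 SE, adjusted p = 0.0558, edgeR). *Il1a*, the gene of the cytokine interleukin 1 alpha, was at 1.35 ± 0.35 (SE, adjusted p = 0.108), with 319 ± 135 CPM in controls and 816 ± 296 CPM in CSF1 OE mice (SD, n = 4 each). *Bcl2a1a*, of a family of survival genes whose near-identical copies share reads, was at 1.85 ± 0.34 (SE, adjusted p = 0.0558) and is uncertain for that reason.

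Not every inflammatory target was higher. The chemokine genes *Ccl3*, *Ccl4*, *Ccl2*, *Cxcl1* and *Cxcl2* had log2 fold changes of -0.11, -0.44, -0.58, -0.69 and -0.44 (edgeR, adjusted p between 0.238 and 0.835), and *Il1b* was at 0.39 ± 0.39 (SE, adjusted p = 0.649). *Ccl4* had 344 ± 112 CPM in controls and 253 ± 58.2 CPM in CSF1 OE mice (SD, n = 4 each), and its groups overlapped.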

How the data were processed

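RNA of CD11b+ brain cells was measured by RNA-seq in 4 control and 4 CSF1 OE mice, grouped by the codes in their labels, with 1 library per mouse. The authors mapped paired reads with Bowtie 1.0.0 and made expected counts per gene symbol with RSEM 1.2.7 (versions and build mm10 from the submitters' processing notes) and deposited them without normalization. The annotation and strand setting are not given in the sources used here. The deposited normalized table, a signal on the scale of counts, holds the same values scaled by 1 factor for each library. Between 20.8% and 26.5% of expected counts were not whole, and all were rounded.

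Genes were fitted together in R 4.3.3 with edgeR 4.0.16 (TMM, filterByExpr, glmQLFit, glmQLFTest, prior count of 2 for log2 CPM), with Benjamini-Hochberg adjustment over all 13407 genes tested. The common biological coefficient of variation was 0.228. The study's fold limits were kept, and its own tool EBSeq was not run here. With EBSeq on these libraries the study named *Tlr2* as differentially expressed, whereas edgeR did not call it here. The study also reported that transcripts for TNF and interleukin 1 alpha were not increased in its RNA-seq data. Exact permutation tests used 70 assignments. Alternatives were DESeq2 1.42.0, upper-quartile factors, other filters, a robust prior, limma 3.58.1 on log2 normalized values (pseudocounts 1 and 0.5), covariates, glmTreat, no fold limit and each mouse left out. The script was tested on simulated data. Lengths and positions came from GENCODE M21 (GRCm38).

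The 10 genes and the lists were chosen with earlier results of these data known. Genes named are the 10, in each pathway list any called gene and the extremes of log2 fold change, and the 5 genes most like *Tnf*. Others were named after their values were seen.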

Additional observations from a re-analysis of the deposited data

Results flagged for a closer look

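In 3 of 54 groups of 4 mice examined, 1 mouse stood further from the rest than the 95% limit of Dixon's test, which chance alone exceeds in about 1 of 20 groups. *Tnfrsf1a* in control mouse 1934 was at 120 CPM, where the other controls had 179 to 188 CPM. *Nfkb1* in the same mouse was at 173 CPM, against 232 to 240 CPM in the others. *Zfp36l1* in CSF1 OE mouse 1936 was at 217 CPM, against 388 to 414 CPM in the other CSF1 OE mice. Mouse 1934 was the lowest control for all 10 genes and for the summed microglia markers.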

How the results depend on the processing

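Of the 10 genes, 1 (*Tnf*) instead of 0 was called by DESeq2, with the term for animal numbers, with the immediate early covariate, with the microglia covariate and, when 1 mouse was left out, between 0 and 1. Of the other pathway genes, 9 were called by DESeq2, 1 by limma at either pseudocount, 10 with the term for animal numbers, 7 with the immediate early covariate, 5 with the microglia covariate and 0 to 1 with 1 mouse left out. Over all genes the 59 calls became 427 by DESeq2, 19 with upper-quartile factors, 104 by limma, 1273 with the term for animal numbers, 386 with the immediate early covariate, 330 with the microglia covariate, 9 with the heat shock covariate, 3 by glmTreat and 3 to 164 with 1 mouse left out. With the term for animal numbers, the pathway calls were 10 of 104 genes tested, and all calls were 1273 of 13407. Of these pathway calls 6 were higher and 4 lower, and of all calls 302 were higher and 971 lower. With the immediate early covariate 6 pathway genes were higher and 1 lower (all genes 212 and 174). With the microglia covariate all 5 were higher (all genes 206 higher and 124 lower). The cause of these changes in the calls was not tested.

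The sign of *Nfkb1* turned with the term for animal numbers (0.18), the immediate early covariate (0.019) and in some of the leave-one-out fits, which together ran from -0.11 to 0.070. In leave-one-out fits *Tnfrsf1b* ran from -0.068 to 0.13, *Nfkbid* from -0.16 to 0.17 and *Spata2* from -0.016 to 0.12. With the heat shock covariate *Tnfrsf1a* was at -0.015, *Tnfrsf1b* at -0.0096, *Nfkb2* at -0.11, *Relb* at -0.011, *Nfkbid* at -0.13 and *Spata2* at -0.019. *Tnf*, *Nfkbia*, *Nfkbiz*, *Rel* and *Tnfaip3* were higher in CSF1 OE mice under all 21 alternatives. The receptor ratio stayed on the same side of its test under all 10 alternatives, with differences from -0.17 to -0.0014. No paired analysis was possible because the groups share no replicate numbers. The least abundant of the 10 genes, *Relb*, had at least 255 counts in every library.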

Other observations

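Over the 8 mice, the genes whose log2 CPM most resembled that of *Tnf*, among 9362 genes with a mean of at least 10 CPM, were *Morf4l1* (Pearson r = 0.990), *Dars* (0.985), *Ghitm* (0.985), *I830077J02Rik* (0.984) and *BC005624* (0.981). *Morf4l1*, which encodes a chromatin protein, ranked the mice in the same order as *Tnf* with a Spearman rho of 1, as did *Dars* and *Ghitm*. The level of *Morf4l1* was 332 ± 10.4 CPM in controls and 374 ± 23.6 CPM in CSF1 OE mice (SD, n = 4 each). Its log2 fold change of 0.17 was not called (adjusted p = 0.327, edgeR), so that the likeness is one of pattern over the mice and not of the size of the change. *I830077J02Rik* was at 0.53 (adjusted p = 0.108). The genes were picked as the highest of all those compared, share libraries and depth with *Tnf*, and were given no test.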
